A study of Mus musculus with 8 samples.

Results

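The T and NK cell marker genes described here are Cd3d, Cd3e, Cd3g, Cd4, Cd8a, Lck, Zap70, Nkg7, Gzma and Klrd1, 10 genes that mark mature T lymphocytes and natural killer (NK) cells rather than stem cells. They were chosen by name, and all 10 of the 10 were found among the 27725 genes of the array, on 15 of its 41174 probes. The samples were haematopoietic stem cells (HSC) of donor origin, isolated by flow cytometry from transplanted mice. Their mRNA was copied by a global PCR (SuperAmp) and hybridised to 8 Agilent arrays of 1 colour. The groups were E47 knockout (KO) cells from secondary recipients, wild-type (WT) cells from secondary recipients, KO cells from primary recipients and WT cells from primary recipients, with 2 arrays each. Every group thus shares transplantation, sorting and amplification, and the design text names the WT samples as the reference. The sources used here do not give the allele, the strains and ages of the mice, the sorted surface markers or the number of cells. Nor do the labels say whether a pair of arrays came from separate sorts or animals, so the p-values rest on a spread between arrays that may be technical.

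T cells recognise peptides through the T cell receptor, whose signal is carried into the cell by the CD3 chains. The coreceptors CD4 and CD8 bind the presenting MHC molecule and bring the kinase Lck to the receptor; Lck phosphorylates the CD3 chains, and Zap70 docks on them and passes the signal on. NK cells kill without such a receptor and share with cytotoxic T cells the granule protein Nkg7 and proteases such as granzyme A (Gzma), while Klrd1 (CD94) pairs with NKG2 proteins to form receptors for MHC class I. E47, a product of the gene Tcf3, belongs to the E proteins, which bind the short DNA motif called the E-box and act in early lymphocyte development.

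The probes below are 60-base sequences from the scanner files, with positions in mm8, and are shown because the results turn on what they detected. They belong to Gzma (chr13:114216656-114216715, minus strand), Klrd1 (chr6:129564066-129564125, plus strand), Nkg7 (chr7:43305698-43305757, plus strand), Cd4 (chr6:124833307-124833366, minus strand) and Cd8a (chr6:71303400-71303459, plus strand). No annotation of that build was used, so exon and UTR are not stated.
Gzma: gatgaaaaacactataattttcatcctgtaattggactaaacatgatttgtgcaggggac
Klrd1: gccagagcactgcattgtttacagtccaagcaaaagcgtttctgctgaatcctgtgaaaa
Nkg7: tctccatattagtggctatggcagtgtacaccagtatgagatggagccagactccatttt
Cd4: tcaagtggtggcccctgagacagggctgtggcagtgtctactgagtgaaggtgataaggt
Cd8a: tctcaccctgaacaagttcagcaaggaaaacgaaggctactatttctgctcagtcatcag

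Since E47 binds E-boxes, the promoters of the members were searched for them. Promoter windows, from 250 bases before to 50 bases after the start of a gene, were taken from RefSeq on GRCm38.p6 and matched 8 of the 10 members in 11 windows; Cd4 and Klrd1 were not matched. The general motif CANNTG, which reads the same on both strands, stood in 11 of 11 windows, against 72.3% of 32851 promoters of the same length. The form CAGGTG, read on both strands and a subset of CANNTG, stood in 8 of 11 windows, against 20.2% of all promoters, and in 6 of 8 genes, against 22.6% of all genes. The form CAGCTG, also a subset, stood in 2 of 11 windows, against 16.3%. Such matches are letters in a window, not evidence of binding. As examples, the windows of Cd3g (chr9:44980382-44980681, minus strand) and Gzma (chr13:113100932-113101231, minus strand) held CAGGTG on one strand or the other, and that of Nkg7 (chr7:43436888-43437187, plus strand) held only other forms. Capitals mark every CANNTG.
Cd3g: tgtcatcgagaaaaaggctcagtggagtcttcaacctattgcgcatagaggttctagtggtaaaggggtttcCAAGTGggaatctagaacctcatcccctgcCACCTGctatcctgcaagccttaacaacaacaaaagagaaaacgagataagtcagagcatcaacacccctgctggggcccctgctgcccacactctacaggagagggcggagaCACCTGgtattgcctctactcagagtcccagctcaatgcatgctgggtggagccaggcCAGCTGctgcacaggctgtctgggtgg
Gzma: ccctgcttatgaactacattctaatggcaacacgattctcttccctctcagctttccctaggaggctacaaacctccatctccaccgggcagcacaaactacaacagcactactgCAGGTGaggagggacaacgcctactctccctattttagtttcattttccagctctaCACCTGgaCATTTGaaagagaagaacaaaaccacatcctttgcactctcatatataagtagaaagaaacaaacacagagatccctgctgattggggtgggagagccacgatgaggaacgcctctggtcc
Nkg7: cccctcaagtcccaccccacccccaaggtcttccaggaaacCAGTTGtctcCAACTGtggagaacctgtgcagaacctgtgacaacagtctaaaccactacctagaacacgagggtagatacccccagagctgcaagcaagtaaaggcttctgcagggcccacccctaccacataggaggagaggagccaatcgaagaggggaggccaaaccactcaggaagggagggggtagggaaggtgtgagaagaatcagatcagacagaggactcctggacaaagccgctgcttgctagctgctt

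Of 2 probes of Tcf3, which encodes E47 and E12, that of higher mean signal read 83.8 to 1664 on KO arrays and 104 to 1778 on WT arrays, and the other 28.7 to 2674 on KO arrays and 2.22 to 394 on WT arrays. Whether either lies in the deleted part is not known here, so they do not check the labels. The arrays differed in brightness, which touches every value below. The share of spots well above background lay between 72.2% and 90.7% on 6 arrays but was 35.4% on replicate 2 of KO primary and 41.9% on replicate 2 of WT primary, called the dim arrays here. Levels are therefore given as the deposited signal and as log2 of the signal minus log2 of the array's 75th percentile (the scaled log2 level). The 4 WT arrays lay on 1 slide and the KO arrays of each recipient on a slide of their own. The effects of genotype and of slide therefore cannot be told apart. Nor can those of recipient and of slide in KO cells, whose primary and secondary arrays lay on different slides. The interaction and the recipient comparison over both genotypes include these KO arrays and share that limit in part. Of 20 HSC markers, 19 to 20 were well above background on the 4 secondary arrays, with a summed signal of 72455 to 131634, and 13 to 20 on the 4 primary arrays, with 656 to 93327. Of 20 neutrophil and monocyte markers, 16 to 19 were above background on secondary arrays, with a summed signal of 15233 to 33609, and 17 to 20 on primary arrays, with 84956 to 392253. Their part in the results was not tested.

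No member passed the test in any of the 7 comparisons, and no gene did. With limma over 22975 genes and Benjamini-Hochberg adjustment, 0 of the 9 members tested were called (adjusted p under 0.05), against 0% of all genes, in KO against WT in primary recipients, in secondary recipients and in both, in the interaction of genotype and recipient, and in secondary against primary recipients in WT, in KO and in both. Gzma was not tested because it was well above background on 1 array only. At an unadjusted p under 0.05 the members' counts were 1 for KO against WT in both recipients (Cd8a, against 4.68% of all genes), 2 for secondary against primary recipients in both genotypes (Cd3e and Cd8a, against 19.2%), and 0 in the others. The share of all genes in those was 3.95% for KO against WT in primary recipients, 5.36% in secondary recipients, 3.75% for the interaction, and 12% and 6.04% for secondary against primary recipients in WT and in KO. Log2 changes below are relative to the median gene, whose own shift lay between -0.99 and 0.45, while the p-values belong to the uncentred change. A difference in how many T or NK cells a sample held cannot be told apart from a difference in RNA per cell, HSC included.

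**Figure D1:**
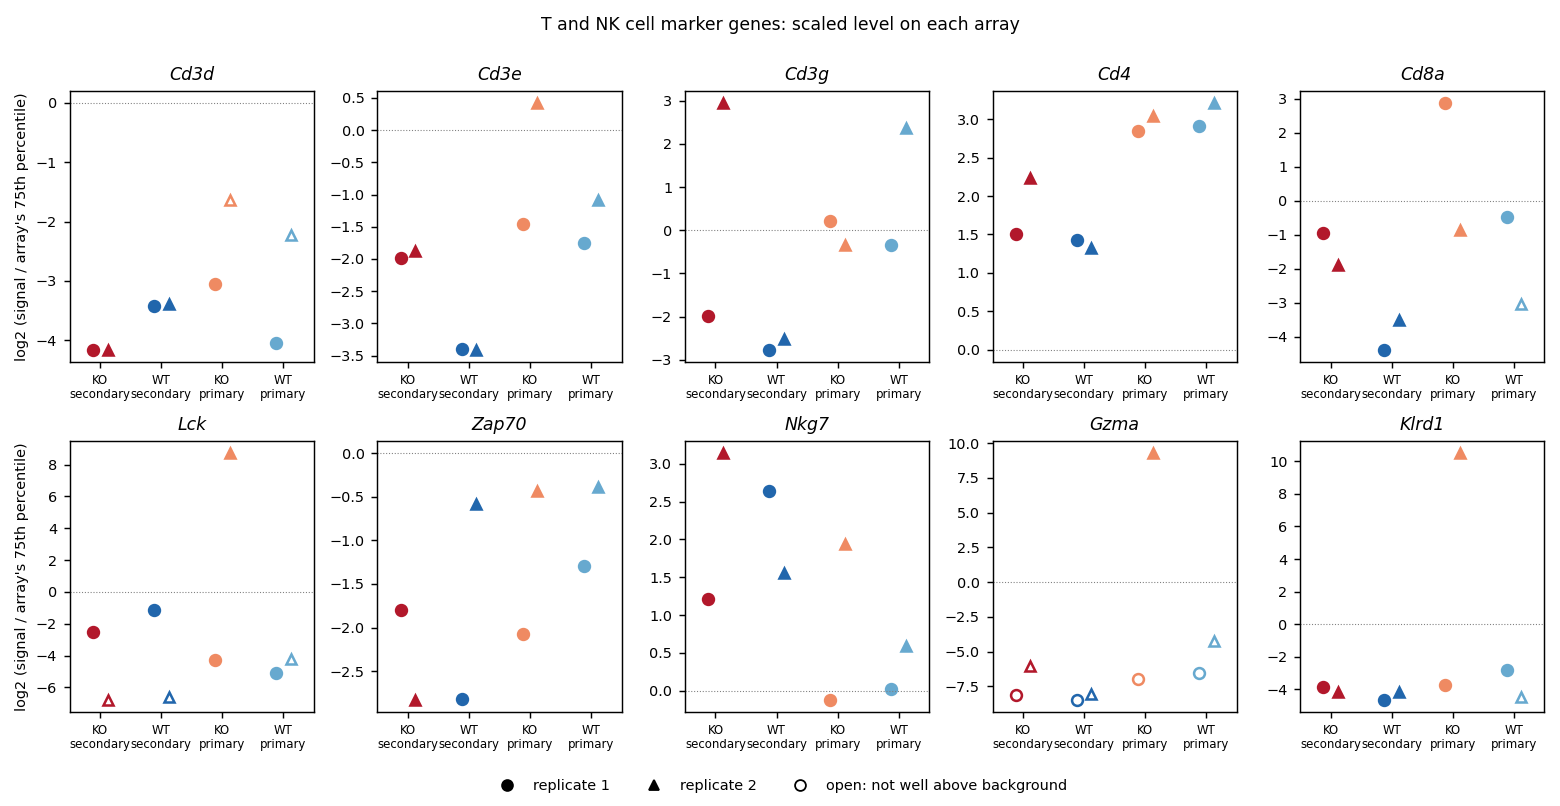
Scaled log2 level (log2 of the signal over the array's 75th percentile) of the probe that represents each of the 10 genes, with a point per array and the groups from left to right as KO secondary, WT secondary, KO primary and WT primary. Gzma, Klrd1 and Lck each have a lone high point on replicate 2 of KO primary, while the 2 arrays of Cd4 lie close together in every group.

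Among the CD3 chains, which carry the receptor's signal, Cd3e was measured on all 8 arrays. Its signal was 168 and 118 on KO secondary arrays, 80.2 and 68.6 on WT secondary arrays, 130 and 26.3 on KO primary arrays, and 95.3 and 17.3 on WT primary arrays. In secondary recipients the KO arrays lay above the WT arrays, with scaled log2 levels of -1.93 ± 0.08 in KO and -3.41 ± 0.01 in WT (SD, n = 2 each). The log2 change there was 1.03 (SE 1.03, limma adjusted p = 0.984). A further Cd3e probe was well above background only on replicate 1 of KO secondary, at 32.

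Cd3g, the gamma chain, had signals of 167 and 3319 on KO secondary arrays, 124 and 127 on WT secondary arrays, 416 and 15.4 on KO primary arrays, and 254 and 188 on WT primary arrays. Replicate 2 of KO secondary thus stood alone, 7.98-fold above the next array. The log2 change of KO against WT in secondary recipients was 2.67 (SE 1.72, limma adjusted p = 0.984), and 0.25 without that replicate. In WT cells the secondary arrays lay below the primary ones, with a log2 change of -2.66 (SE 1.72, adjusted p = 0.413).

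Cd3d, the delta chain, was dim everywhere and well above background on 6 arrays. Its signals were 37.1 and 24.2 on KO secondary arrays, 78.7 and 70 on WT secondary arrays, 43.1 and 6.28 on KO primary arrays, and 19.5 and 7.87 on WT primary arrays; the dim arrays were the ones not above background. In secondary recipients both KO arrays lay below both WT arrays, and the log2 change was -1.21 (limma SE 1.07, adjusted p = 0.984). The 3 CD3 chains did not share a pattern: the order of KO and WT in secondary recipients for Cd3d was opposite to that for Cd3e and Cd3g. Over the 6 brighter arrays the scaled levels of Cd3d and Cd3e correlated at r = -0.311, those of Cd3d and Cd3g at -0.335, and those of Cd3e and Cd3g at 0.685, as a description of arrays that share groups and brightness.

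Cd4, the coreceptor for MHC class II, varied least between arrays of the members' main probes, on a probe spotted 10 times. Its signal was 1881 and 2026 on KO secondary arrays, 2288 and 1824 on WT secondary arrays, 2563 and 161 on KO primary arrays, and 2402 and 338 on WT primary arrays. Over the 6 brighter arrays the highest signal was 1.41-fold the lowest, and the spots on an array varied by 1.59% to 4.27% (CV). Scaled to the array, the level was 1.86 ± 0.52 in KO secondary, 1.38 ± 0.08 in WT secondary, 2.94 ± 0.14 in KO primary and 3.06 ± 0.21 in WT primary (log2, SD, n = 2 each). All 4 secondary arrays lay below all 4 primary arrays on this scale, as for 12.7% of all genes, while unscaled signals overlapped. The log2 change was -0.64 (limma SE 0.61, adjusted p = 0.264).

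The other Cd4 probe, further along the transcript, gave 67.4 and 63.4 on KO secondary arrays, 52.5 and 107 on WT secondary arrays, 20.9 and 19.2 on KO primary arrays, and 103 and 1.68 on WT primary arrays, the last not above background. Its arrays spanned a scaled log2 range of 4.42, against 1.89 for the main probe. The narrow range was thus seen on 1 of the 2 probes of the gene.

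Cd8a, the coreceptor for MHC class I, has 3 probes, and they disagreed. The probe at base 1294 of the transcript, which represents the gene, gave 344 and 117 on KO secondary arrays, 40.8 and 64.7 on WT secondary arrays, 2624 and 10.9 on KO primary arrays, and 231 and 4.51 on WT primary arrays. In secondary recipients KO and WT did not overlap on it, and in primary recipients replicate 1 of KO was the highest of the 8 arrays. The log2 change of KO against WT over both recipients was 2.31 (SE 1, limma adjusted p = 0.851), which had the lowest unadjusted p of any member in that comparison, 0.0283.

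At base 2875 of Cd8a, on a probe spotted 10 times, the signals were 147 and 891 on KO secondary arrays, 276 and 163 on WT secondary arrays, 615 and 2.32 on KO primary arrays, and 59.2 and 4.24 on WT primary arrays. KO and WT overlapped on it in both kinds of recipient. The probe printed above, at base 464, stayed between 4.91 and 83.3 on all 8 arrays and was well above background on 6. The log2 change over both recipients was 1.17 (SE 1.07) at base 2875 and 0.44 (SE 0.91) at base 464, with limma adjusted p = 0.863 and 0.886 when probes were tested one by one. So the size of the Cd8a difference depended on the probe, while its sign was positive on all 3 in that comparison.

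**Figure D2:**
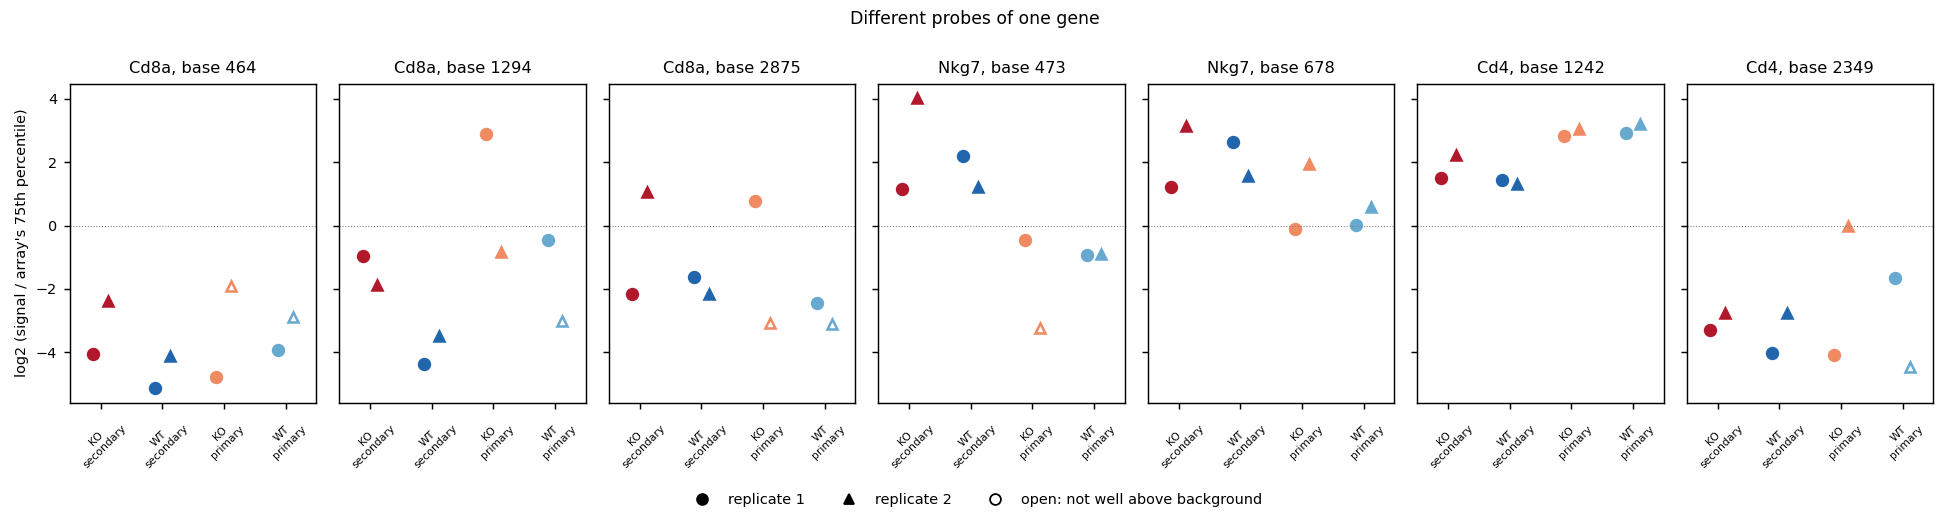
Scaled log2 level of the 3 probes of Cd8a and of the 2 probes each of Nkg7 and Cd4, titled by the base of the transcript where the probe starts, with a point per array in the group order KO secondary, WT secondary, KO primary, WT primary. Both Nkg7 probes lie higher on secondary arrays except for replicate 2 of KO primary on the probe at base 678, whereas the Cd8a probes order the arrays differently.

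Lck, the kinase that starts receptor signalling, had its highest value on a single array. Its signal was 115 and 3.88 on KO secondary arrays, 391 and 7.62 on WT secondary arrays, 18.8 and 8331 on KO primary arrays, and 9.27 and 1.97 on WT primary arrays. Replicate 2 of each of the other 3 groups was not well above background. Replicate 2 of KO primary, one of the dim arrays, stood 21.3-fold above the next array, at percentile 98.6 of that array's own signals. Lck was well above background on both arrays in KO primary only, so it entered the test through the group where it was high. The log2 change of KO against WT in primary recipients was 6.62 (SE 3.92, limma adjusted p = 0.995). It was 0.7 when replicate 2 of KO primary was left out.

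Zap70, the kinase that binds phosphorylated CD3 chains, gave a signal above background on each of the 8 arrays. It read 191 and 60.5 on KO secondary arrays, 120 and 489 on WT secondary arrays, 85 and 14.6 on KO primary arrays, and 131 and 27.8 on WT primary arrays. The groups overlapped in every comparison. Over all arrays, KO against WT stood at -0.84 (log2 change, SE 0.79, limma adjusted p = 0.905) and secondary against primary recipients at -0.23 (SE 0.79, limma adjusted p = 0.503).

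Nkg7, a membrane protein of cytotoxic granules, was the member whose raw signal separated the kinds of recipient on all of its probes. Of the other members' probes, that of Cd8a at base 464 also did, with 24.1 to 83.3 on secondary arrays and 4.91 to 21 on primary arrays, the lowest secondary array 1.15-fold above the highest primary array. The probe at base 678 gave 1533 and 3804 on KO secondary arrays, 5265 and 2128 on WT secondary arrays, 329 and 75.5 on KO primary arrays, and 326 and 54.9 on WT primary arrays. The lowest secondary array was 4.66-fold above the highest primary array in unscaled signal, and 12.2% of all genes were likewise higher without overlap. Scaled to the 75th percentile, replicate 2 of KO primary overlapped the secondary arrays. The log2 change of secondary against primary recipients was 2.25 over both genotypes (SE 0.80, limma adjusted p = 0.311). It was 2.78 in WT (SE 1.20, limma adjusted p = 0.463), whose arrays lie on the same slide. In KO, whose primary and secondary arrays lie on different slides, it was 1.79 (SE 1.20, limma adjusted p = 0.768). None of these passed the test.

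The Nkg7 probe printed above, at base 473, gave 1478 and 7011 on KO secondary arrays, 3864 and 1695 on WT secondary arrays, 260 and 2.11 on KO primary arrays, and 170 and 19.5 on WT primary arrays. All 4 secondary arrays lay above all 4 primary arrays on it, both scaled and unscaled. The lowest of them was 5.68-fold above the highest primary array in unscaled signal. Of all genes, by the probes that represent them, 3.16% were separated this way scaled and 12.2% unscaled. When probes were tested one by one, secondary against primary recipients stood at 4.04 at base 473 (log2 change, SE 0.99, limma adjusted p = 0.191). In that fit the probe at base 678 stood at 2.05 (SE 0.82, limma adjusted p = 0.348). For KO against WT over both recipients, the log2 change on the probe at base 678 was 0.02 (SE 0.80, limma adjusted p = 0.938).

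Gzma, a protease of cytotoxic granules, was detected on 1 of 8 arrays. Its signal was 2.33 and 6.63 on KO secondary arrays, 2.37 and 2.79 on WT secondary arrays, 2.85 and 12220 on KO primary arrays, and 3.44 and 1.96 on WT primary arrays. Only the value of 12220, on replicate 2 of KO primary, was well above background, and 5 of the other 7 are surrogate values that the scanner software sets for spots at background. With WT primary taken at the lowest signal measured above background, KO primary lay 28.8-fold above it as a mean of scaled log2 levels. That mean holds replicate 1 of KO primary at 2.85, itself not above background. The fold is therefore no lower bound for the group, and it rests on replicate 2. KO secondary was 141-fold lower than KO primary by the same reckoning, with the same limit.

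Klrd1, the CD94 chain of NK receptors, was also high on that array alone. Its signal was 46.5 and 24.3 on KO secondary arrays, 33.9 and 40.9 on WT secondary arrays, 26.5 and 28403 on KO primary arrays, and 46.8 and 1.68 on WT primary arrays. The 6 brighter arrays lay within 1.93-fold of each other. The log2 change of KO against WT in primary recipients was 6.69 (SE 3.83, limma adjusted p = 0.995), 0.13 without replicate 2 of KO primary, and -1.12 without both dim arrays.

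**Figure D3:**
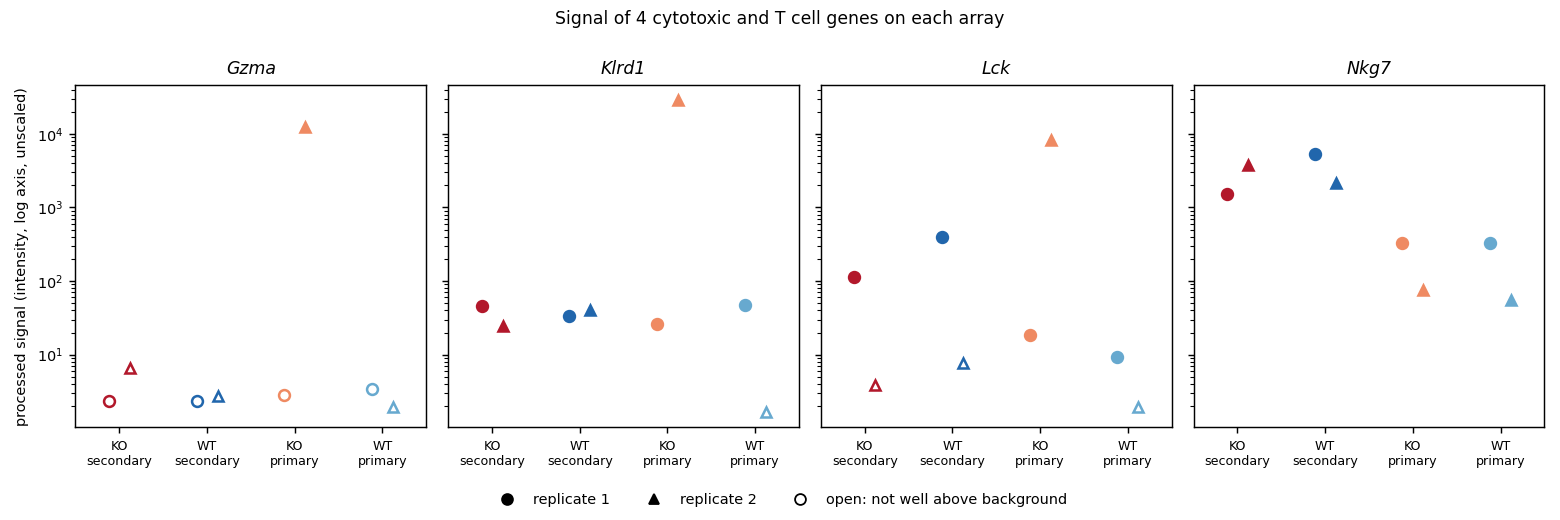
Deposited processed signal, unscaled and on a log axis, of Gzma, Klrd1, Lck and Nkg7 on each array, with the groups from left to right as KO secondary, WT secondary, KO primary and WT primary. Replicate 2 of KO primary reads 12220, 28403 and 8331 for the first 3 genes, and Nkg7 is between 1533 and 5265 on secondary arrays and between 54.9 and 329 on primary arrays.

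Replicate 2 of KO primary therefore held the top unscaled signal of Gzma, Klrd1 and Lck. On this array 14 of 41048 probes stood at least 100-fold above the next array, Klrd1 (607-fold) and Gzma among them, and 58 stood at least 20-fold above it. Values not above background were counted as they stand, and for Gzma the next array was such a value, so no fold is given. The other 7 arrays had 21 to 32 probes at 100-fold and 177 to 459 at 20-fold. In percentiles of the array's own signals, Klrd1 lay at 99.5, Gzma at 98.9 and Lck at 98.6.

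Other T and NK genes gave mixed values there. In unscaled signal Cd3d, Cd3e and Cd3g read 6.28, 26.3 and 15.4 on that array, whose 75th percentile was 19.6, and the Nkg7 probes 75.5 and 2.11. Scaled to the array, Cd3d (-1.64, not well above background) and Cd3e (0.42) were at their highest there, while Cd3g (-0.35) was not. Of the 9 members tested, 4 had their highest scaled level on that array, against 25.4% of all genes. Lck, 1 of these 4, was tested only because KO primary passed the background mark on both arrays. The count is therefore no independent result for Lck. Of the cytotoxic genes outside the members, perforin (Prf1) read 9.63 and granzyme B (Gzmb) 1.96. The chemokine gene Ccl5 read 8908, against 2780 on the next array, and the adaptor gene Sla2 7323, against 5945 on the next array. Of 3 probes of the T cell receptor alpha chain (Tcra), 1 read 17919, against 244 on the next array. The others read 1.74 and 1.96. Of 37 probes of receptor chains, only 1 was highest on this array. These probes, Ccl5 and Sla2 were looked at after the values were seen. In each wider list described below, this array held the fewest genes above background of the 8 arrays. These were 15 of 27 receptor signalling, 18 of 32 T lineage and 16 of 34 NK and cytotoxic genes. In each list 0 genes stood at least 10-fold above the next array there. On the other dim array, replicate 2 of WT primary, a probe of the receptor beta constant segment read 53093 and a Tcrb-V13 probe 27324, with 1613 and 1535 on the next arrays, while all 10 members together summed to 643, the lowest of the 8 arrays. Segments of these chains resemble each other, so such probes may share targets. The part of the array's low brightness in these values was not tested.

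The scaled levels of Lck and Klrd1 correlated at r = 0.908 over 8 arrays and at -0.276 over the 6 brighter ones, so the relation rests on the dim arrays. The genes most like a member were the 5 of highest r among 16493 named genes over 8 arrays, so high values follow in part from that choice. Those most like Klrd1 were Clec4a2, Ring1 and Elac2 (r = 0.994 each), followed by Stat3 and Galnt2 (0.991). On replicate 2 of KO primary, probes of Klrd1, Clec4a2 and Ring1 stood 607-, 155- and 67.9-fold above the next array, so r with Klrd1 leans on that array. For Nkg7 the likest genes were Aph1a (0.965), Cep350 (0.964), Azi2 (0.96), Sec24a (0.957) and Tsr3 (0.952). For Cd4 they were Lrrc46 (0.994), Tmem239 and Zfp276 (0.991 each), Slc39a5 (0.987) and Uts2r (0.986). For the other members the 5 likest genes, none of them a member, ran from Ing5 (0.972) to H2-K1 (0.959) for Cd3d, from Olfr799 (0.994) to Rdh12 (0.985) for Cd3e, from Llcfc1 (0.98) to Lpgat1 (0.959) for Cd3g, from Abca8a (0.978) to Sema4g (0.968) for Cd8a, and from Arrdc5 (0.968) to Hax1 (0.932) for Zap70.

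**Figure D4:**
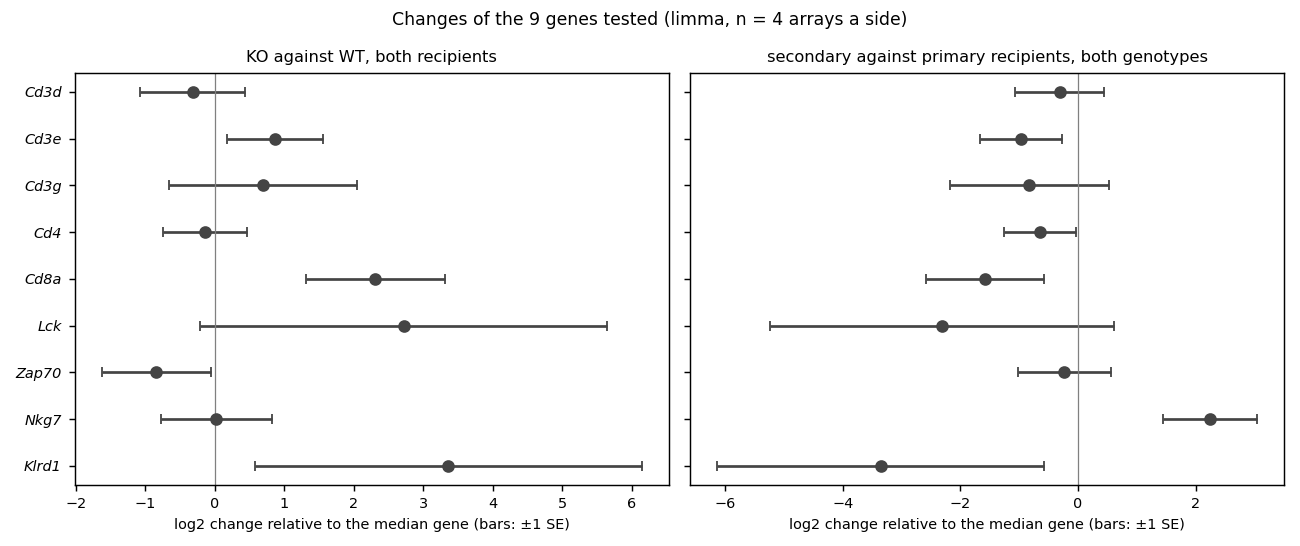
Log2 change relative to the median gene, with bars of 1 SE, of the 9 members tested, for KO against WT over both recipients and for secondary against primary recipients over both genotypes (limma, 4 arrays a side). Cd8a lies at 2.31 in the genotype comparison and Nkg7 at 2.25 in the recipient comparison, and no member passed the test in either.

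Members were also counted by whether the arrays of the groups overlapped. In secondary recipients both KO arrays lay above both WT arrays for 5 of 9 members (Cd3e, Cd3g, Cd4, Cd8a and Klrd1), against 34% of all genes, and below them for 1 (Cd3d), against 12.3%. With each array centred on its median instead, the members were 2 above (Cd3e and Cd8a), against 20.8% of all genes, and 1 below (Cd3d), against 15.3%. In primary recipients no member was separated, against 16.9% of all genes higher and 9.12% lower in KO, and over both recipients none was, against 1.31% higher and 0.487% lower.

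In scaled levels, secondary arrays lay below primary arrays without overlap for 4 of 9 members in WT (Cd3e, Cd3g, Cd4 and Cd8a), against 40% of all genes, and above for 1 (Nkg7), against 15.3%. For Cd8a the order in WT depended on the probe: it was the same on the probe at base 464, while at base 2875 both secondary arrays lay above both primary arrays, at scaled log2 levels of -1.89 ± 0.38 in WT secondary and -2.78 ± 0.47 in WT primary (SD, n = 2 each). Over both genotypes the log2 change of Cd8a in secondary against primary recipients was -1.79 at base 1294, -0.02 at base 464 and 1.26 at base 2875 when probes were tested one by one. In KO cells, where recipient and slide cannot be told apart, 5 lay below (Cd3d, Cd3e, Cd4, Cd8a and Klrd1), against 28.4%. In KO cells 0 lay above, against 12.7%. These counts depended on the scaling. In unscaled signal, 1 member lay below in WT (Cd3g), against 1.25% of all genes, and 2 above (Cd3d and Nkg7), against 43.3%. Unscaled in KO, 0 lay below, against 1.06%, and 1 above (Nkg7), against 36.8%. Over both genotypes the separated members were Cd3e and Cd4, both lower, against 12.7% of all genes, and 0 higher, against 3.16%. With quantile normalization Cd3e and Cd4 were no longer separated (0 lower, against 10.4% of all genes) and Nkg7 was, higher on secondary arrays (1 of 9, against 3.95%). Unscaled signals of the probes that represent the genes also separated Nkg7 alone, 1 of 9 higher, which is close to the 12.2% of all genes. The median log2 change of the members was -0.83 in that comparison, with 1 of 9 above the median gene. It was 0.69 for KO against WT over both recipients, with 6 of 9 above the median gene. Lck, 1 of these 6, entered the test through KO primary alone. The interaction of genotype and recipient had the lowest unadjusted p for Cd3g, 0.125, with a log2 value of 3.93 (SE 2.43, limma adjusted p = 1), and of 1.43 without replicate 2 of KO secondary, the array that stood alone for Cd3g.

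Wider lists of the same cells gave no called gene either. The lists were T cell receptor signalling (25 of 28 genes tested), T lineage transcription factors and other T cell surface genes (31 of 32), and NK and cytotoxic genes (30 of 36), and 0 rose or fell in any of the 7 comparisons. For KO against WT over both recipients their median log2 changes were 0.08, 0.12 and 0.32, and for secondary against primary recipients over both genotypes -0.16, -0.53 and -0.56.

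In receptor signalling, the lowest p for KO against WT belonged to Vav1, a signalling protein that acts downstream of the receptor, at -4.99 (log2 change, SE 1.33, limma adjusted p = 0.851), and to Ptprc (CD45), the phosphatase that activates Lck, at -4.40 (SE 1.76, adjusted p = 0.851). Vav1 read 3438 and 1443 on KO secondary arrays, 10330 and 7704 on WT secondary arrays, 84.8 and 5.96 on KO primary arrays, and 8308 and 5583 on WT primary arrays. Its KO arrays thus all lay below its WT arrays in unscaled signal, as for 0.261% of all genes. Vav1 was picked for its low p, and genotype and slide cannot be told apart. Ptprc read 733 and 122 on KO secondary arrays and 923 and 1703 on WT secondary arrays. On primary arrays it read 42.9 and 5.71 in KO and 404 and 9769 in WT, the last on a dim array. For secondary against primary recipients the lowest p belonged to Lcp2, the adaptor SLP-76, at 3.30 (SE 0.66, adjusted p = 0.188), and Icos, a costimulatory receptor, at -1.32 (SE 0.67, adjusted p = 0.249). Lcp2 read 2248 and 4228 on KO secondary arrays, 3646 and 4508 on WT secondary arrays, 444 and 21 on KO primary arrays, and 198 and 31.8 on WT primary arrays.

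Among T lineage genes, S1pr1, the receptor that lets lymphocytes leave tissue, stood at 3.72 for KO against WT (log2 change, SE 1.14, limma adjusted p = 0.851) and Gata3, a T cell transcription factor, of -4.96 (SE 1.96, adjusted p = 0.851). Gata3 read 756 and 9.82 on KO secondary arrays, 1231 and 1044 on WT secondary arrays, 155 and 7.6 on KO primary arrays, and 430 and 21753 on WT primary arrays. S1pr1 was well above background on 5 arrays only. It read 205 and 1599 on KO secondary arrays and 70.5 and 32 on WT secondary arrays. On primary arrays it read 443 and 1.87 in KO and 3.41 and 1.7 in WT, the WT values not above background. For secondary against primary recipients, Cd7 stood at -1.36 (SE 0.65, adjusted p = 0.243) and Tcf7, the factor TCF1 of early T cells, at -2.03 (SE 0.92, adjusted p = 0.25). In the NK list the lowest p belonged to Klrb1c (NK1.1), at 1.53 (SE 0.89, adjusted p = 0.851), and Hcst (DAP10), at 1.98 (SE 1.15, adjusted p = 0.851), for KO against WT, and to Il2rb, at -1.06 (SE 0.64, adjusted p = 0.25), and Klre1, at -1.25 (SE 0.72, adjusted p = 0.25), for secondary against primary recipients.

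Some genes of these lists were above background throughout. All 8 arrays held 13 of 27 receptor signalling genes (among them Lat, Lcp2, Csk, Ptpn6, Plcg1, Nfatc2, Rasgrp1, Icos, Cd2, Cd5, Sla2 and Grap2), with signals between 9.58 and 8527. They also held 14 of 32 T lineage genes (Tcf7, Tbx21, Runx3, Runx1, Ets1, Ikzf1, Ikzf3, Ptcra, Ccr9, Cd27, Cd6, Cd7, Thy1 and Cd8b1), between 12.2 and 12052, and 14 of 34 NK and cytotoxic genes (Klrc1, Klre1, Klra8, Klrg1, Ncr1, Il2rb, Tyrobp, Hcst, Fcer1g, Gzmm, Srgn, Fasl, Ccl5 and Nfil3), between 10.7 and 56597. Several of these, such as Runx1, Ikzf1, Ptpn6, Fcer1g and Srgn, are known from other blood cells too. Of the 10 members themselves, Cd3e, Cd3g, Cd4, Zap70 and Nkg7 were above background on all 8 arrays. The share of all genes above background on all 8 arrays was not counted. In lists of other cells it was 10 of 20 HSC, 9 of 14 B lineage, 14 of 20 neutrophil and monocyte and 8 of 12 dendritic cell genes. It was 6 of 10 megakaryocyte, 4 of 10 erythroid and 2 of 10 mast cell and basophil genes. Such detection was thus not particular to T and NK genes. A probe above background shows signal at that probe, and levels were not compared between probes.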

How the data were processed

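RNA from donor-derived HSC was measured on 8 arrays of 1 colour (Agilent design 014868), 2 for each of 4 groups taken from the sample titles. The deposited scanner files hold intensities; per the file headers, version 10.5.1.1 of Agilent Feature Extraction wrote them, as a background-subtracted processed signal, mean and background signals, and quality marks. The deposited series matrix was a table of values divided by each array's median (a ratio), found by setting its columns (median 1 each) against the scanner values, and served as an alternative; its direction is that of the signal. Spots marked as outliers were left out and spots of a probe averaged. Levels are log2 of the authors' processed intensity minus the array's 75th percentile. No spot was saturated, and the number of arrays limits precision.

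Probes were named through the mouse gene table of GRCm38.p6, names only (24375 probes by first accession). A gene was its probe of highest mean, tested if any probe passed the background mark on both arrays of at least 1 group. Tests used limma 3.58.1 (lmFit, eBayes) under R 4.3.3 (4 residual degrees of freedom over 4 groups, 5 in the additive model over all 8 arrays), adjusted by Benjamini-Hochberg over 22975 genes. Alternatives covered normalization, background, filters, probes, left-out arrays and blocks. The fit was tested on simulated data for KO against WT in secondary recipients. With the spread as measured, it called none of the changes put in. A lack of called genes therefore does not show a lack of change. Named genes were all members, for each list the 2 genes of lowest p in the genotype and the recipient comparison over all arrays and those above background on all 8 arrays, and the 5 likest genes by r. A gene that this rule names is not reported here. Receptor chain probes, Prf1, Gzmb, and genes high on a single array were picked after values were seen. The members and lists were chosen with earlier results of these data known.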

Additional observations from a re-analysis of the deposited data

How the results depend on the processing

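The count of members past the threshold was 0 in all 7 comparisons under each of the 127 combinations of comparison and alternative setting (lowest 0, highest 0 when leaving out 1 array in turn), and with the replicate block it was 0 as well. Since no gene at all passed in the comparisons as reported, these counts say nothing about the stability of single values. The labels do not say whether the replicate numbers pair the samples. Deviations of same-numbered arrays correlated at 0.149 between WT primary and KO primary, whose replicates 2 are the dim arrays. Elsewhere they correlated between -0.0261 and 0.0129. Such values cannot settle whether samples were paired. Other genes were called under some settings, with 541 in KO against WT in primary recipients without replicate 1 of WT primary, and, for secondary against primary recipients over both genotypes, 204 with quantile normalization, 103 with probes tested one by one, 77 without both dim arrays, 30 with genes above background on 6 arrays, 29 with the mean of a gene's probes and 1 with normexp. Of 1101 changes of single members under an alternative, none passed the threshold and 100 had the sign turned, the lowest adjusted p being 0.0868 for Klrd1 in KO against WT in primary recipients without replicate 1 of KO primary (log2 change 13.58). The cause of these shifts was not tested. Nkg7 kept its sign in secondary against primary recipients over both genotypes under all 19 settings, from 1.93 to 4.04, and Cd8a in KO against WT over both recipients under all 19, from 0.44 to 3.17. Signal over background limits Gzma and the other probe of Cd3e, not well above background on 7 of the 8 arrays each, Lck, on 3, and Cd3d and the Cd8a probes at bases 464 and 2875, on 2 each.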
